A study of Mus musculus with 7 samples.

Results

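The integrated stress response is described here through 10 genes of its ATF4-CHOP arm in B16 cells, a mouse melanoma line of C57BL/6 origin. The genes were taken by symbol: Atf4, Atf3, Ddit3 (which encodes CHOP), Trib3, Chac1, Asns, Sesn2, Ppp1r15a (which encodes GADD34), Psat1 and Phgdh. They are 10 of the 13587 genes listed in at least 1 of the 6 deposited tables. All 10 were listed in every table and all 10 had a level high enough to be tested. The cells were a clonal stable line, so they stand for 1 clone, and were held at fewer than 5 passages. Detached cells were given recombinant mouse IFNγ at 10 nM, or medium alone (mock), for 5 h. They were then washed 3 times and plated in 96-well plates, 35000 to a well. PolyA RNA was sequenced from IFNγ-pulsed and mock-pulsed cells labelled 23.5, 48 and 91 h and from cells labelled T0. The labels do not say whether T0 cells had been detached or pulsed. The IFNγ and mock groups of a given hour share line, handling and hour and differ in the cytokine. Any later group differs from T0 in labelled hour and may differ from it in handling and plating as well.

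In the integrated stress response, kinases that sense a load of unfolded protein, a lack of amino acids, double-stranded RNA or a lack of haem phosphorylate the initiation factor eIF2. General protein synthesis then slows while the mRNA of the transcription factor ATF4 is translated better. ATF4 switches on genes of amino acid synthesis and transport, and with CHOP it switches on genes that limit or end the response. ATF4 is thus controlled largely at translation, which RNA levels do not show. Phosphorylated eIF2 and ATF4 protein were not measured here.

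ATF4 paired with a C/EBP protein binds the C/EBP-ATF response element, searched here as TGATGNAA. The RefSeq promoters of build GRCm38.p6, from 250 bases before to 50 bases after each gene's start, were searched for it on both strands. It was found for 4 of the 10 genes, Asns, Atf3, Chac1 and Trib3, and in 3.97% of 32851 promoters. All 10 genes matched the RefSeq table, with 11 promoters between them. The cyclic AMP response element TGACGTCA, which ATF/CREB proteins bind, was found for Ppp1r15a alone among the 10 and in 1.79% of promoters. The endoplasmic reticulum (ER) stress element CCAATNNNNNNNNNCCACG, bound by ATF6 with NF-Y, was found for none of the 10 and in 0.119% of promoters. The matches of the first 2 motifs shared no bases. A match is a run of letters and not a measured binding site. Only these exact letters within that window were searched, so a gene without a match may still hold a site. The 250 bases before the start are shown for 3 genes with a response element match and for Ppp1r15a, with each match in capitals, 5′ to 3′ on the strand of the gene. The promoter of Ddit3, the gene with the largest fold over T0, is shown beside them and holds none of the 3 motifs in its searched window. Asns lies at chr6:7693210-7693459, Atf3 at chr1:191183334-191183583 and Ppp1r15a at chr7:45526269-45526518, all on the minus strand. Chac1 lies at chr2:119350992-119351241 and Ddit3 at chr10:127290543-127290792, both on the plus strand. For Trib3 only 30 bases around its match just after the start are shown, chr2:152344028-152344057 on the minus strand.
Asns: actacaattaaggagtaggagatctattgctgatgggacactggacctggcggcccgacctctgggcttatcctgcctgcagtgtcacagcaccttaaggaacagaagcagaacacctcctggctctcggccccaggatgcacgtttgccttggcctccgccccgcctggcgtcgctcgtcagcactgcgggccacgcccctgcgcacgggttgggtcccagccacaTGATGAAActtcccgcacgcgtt
Atf3: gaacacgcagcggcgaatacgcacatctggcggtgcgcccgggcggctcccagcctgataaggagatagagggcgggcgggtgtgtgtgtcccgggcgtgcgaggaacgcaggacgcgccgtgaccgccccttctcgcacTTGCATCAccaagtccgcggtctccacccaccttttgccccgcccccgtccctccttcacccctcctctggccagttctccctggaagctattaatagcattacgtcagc
Chac1: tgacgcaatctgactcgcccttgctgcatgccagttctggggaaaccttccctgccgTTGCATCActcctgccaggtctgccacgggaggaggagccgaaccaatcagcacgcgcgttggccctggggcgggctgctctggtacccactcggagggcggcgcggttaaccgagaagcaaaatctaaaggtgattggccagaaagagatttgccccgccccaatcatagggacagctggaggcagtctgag
Trib3: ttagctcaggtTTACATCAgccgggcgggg
Ppp1r15a: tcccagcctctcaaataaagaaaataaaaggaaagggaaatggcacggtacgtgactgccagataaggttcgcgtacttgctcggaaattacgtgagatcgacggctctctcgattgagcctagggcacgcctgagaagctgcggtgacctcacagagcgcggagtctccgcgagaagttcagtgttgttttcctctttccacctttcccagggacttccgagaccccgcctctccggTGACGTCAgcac
Ddit3: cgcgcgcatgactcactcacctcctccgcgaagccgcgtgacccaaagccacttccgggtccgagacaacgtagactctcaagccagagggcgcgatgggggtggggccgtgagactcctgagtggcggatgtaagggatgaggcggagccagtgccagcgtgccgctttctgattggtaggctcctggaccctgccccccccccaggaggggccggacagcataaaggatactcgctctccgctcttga
Counted from the start, the match lies at -23 to -16 in Asns, -110 to -103 in Atf3, -193 to -186 in Chac1 and 15 to 22 in Trib3. The match in Asns reads TGATGAAA on the strand of the gene. In Atf3 and Chac1 it reads TTGCATCA, the motif on the opposite strand. The element of Ppp1r15a ends 5 bases before the start, at -12 to -5.

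Each deposited value is a mean over 2 libraries, whose whole reads were solved from it, so 14 libraries stand behind the 7 groups. The labels give 1 sample a group and mention duplicate wells. They do not say that the libraries came from separate cultures, so a p-value here reflects library spread alone, possibly of technical origin. Levels are in normalised reads, the authors' size-factor-scaled signal put on 1 scale through T0. Depth in recovered genes was 12894823 to 23223947 reads a library. Library 1 of each group has its larger size factor, and the numbers pair nothing across groups. All 7 melanocyte markers were listed in B16 cells, with a summed level of 368325 to 549416 normalised reads over the groups, and Tyrp1 was the highest of them. Of the markers of other cells, 1 of 7 for T cells (Lck), 2 of 7 for myeloid cells, 5 of 8 for fibroblasts, 1 of 5 for endothelium (Vwf) and 0 of 4 for keratinocytes were listed. The summed levels of those listed were 25.5 to 143, 27.5 to 97.1, 282 to 515 and 166 to 933 normalised reads. Some moved with the groups compared: the myeloid sum was 97.1 in IFNγ-pulsed and 35.04 in mock-pulsed cells at 91 h and 29.2 in T0, the fibroblast sum was 282, 346 and 515 in these groups, and Lck and Vwf were highest in IFNγ at 48 h, at 143 and 933. The part of these markers in any result was not tested. Cd3e, Cd3g, Ptprc, Pecam1 and Col3a1 were among those not listed. The share of the 18S entry was taken of the summed level of listed genes, without the entries that name no gene. It was 9.47%, 9.77% and 11.8% in IFNγ-pulsed cells at 23.5, 48 and 91 h, against 12.4%, 12.7% and 14.2% in mock-pulsed cells and 12.5% in T0. The part of that share in any result was not tested. In bulk RNA, fewer cells with a transcript and less of it in each cell cannot be told apart.

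The 2 IFNγ libraries at 48 h stood far apart, and every value of that group below should be read with both. All 10 stress response genes were higher in library 1 than in library 2, as were 50.6% of the 10742 genes with a level of 100 or more. The median log2 difference between the libraries was 0.68 for the 10 genes and 0.01 for those 10742. The largest gap was in Ppp1r15a, with 4410.4 and 805 normalised reads. Igtp, Nlrc5 and Irf1, 3 interferon-inducible genes picked after their values were seen, were lower in library 1 than in library 2, with Igtp at 2678 and 9781, Nlrc5 at 1627 and 3309 and Irf1 at 2069 and 3907 normalised reads. For comparison, mock libraries at 48 h had 771 and 642 for Igtp, 127 and 99.9 for Nlrc5 and 1562 and 1384 for Irf1. All 10 stress response genes were also higher in library 1 of the mock group at 23.5 h, as were 47.9% of genes at that level, but with a median log2 difference of 0.22.

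**Figure D1:**
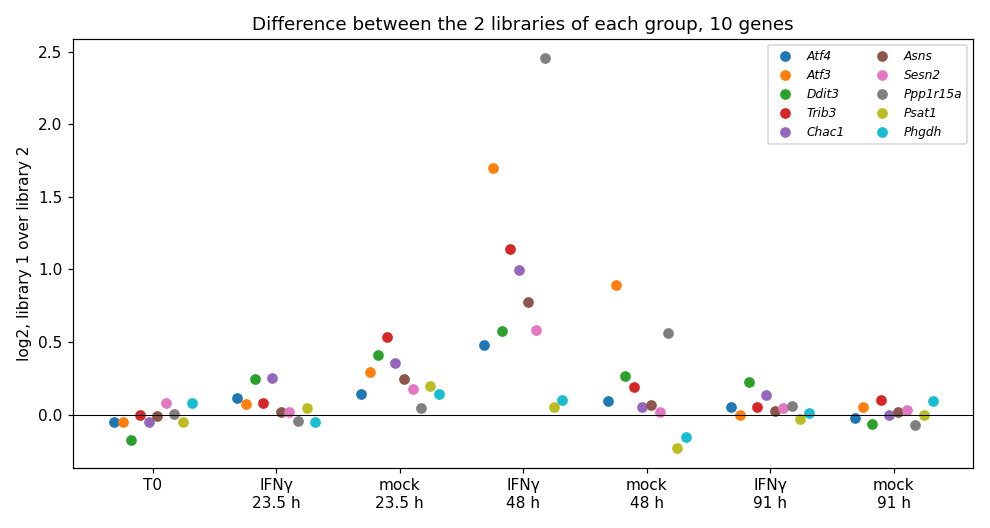
The log2 of library 1 over library 2 (vertical axis) for the 10 genes, 1 point a gene, in each of the 7 groups (horizontal axis). The points of IFNγ at 48 h reach 2.45 for Ppp1r15a and 1.70 for Atf3, while those of both 91 h groups lie between -0.07 and 0.22.

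The first comparison asks how the arm changed in plated cells with no cytokine. In mock-pulsed cells 8 of the 10 genes rose strongly over the time course. Of the serine synthesis enzymes, Phgdh rose by log2 0.42 at 91 h and Psat1 did not pass at any hour in the main fit. With equal library totals all 10 genes passed at 48 h. At 91 h the mean of Ddit3 was 24.3 times that of T0, Trib3 20.1 times, Ppp1r15a 19.1 times and Atf3 15.3 times. Chac1 was 7.31 times its T0 level, Sesn2 5.65, Asns 2.67 and Atf4 itself 2.46 times. By limma on log2(normalised reads + 1), with Benjamini-Hochberg adjustment over all genes tested, 7 of the 10 were higher than T0 at 23.5 h, 8 at 48 h and 9 at 91 h, with an adjusted p under 0.05. Of all tested genes 8.32% were higher at 23.5 h, 32.0% at 48 h and 37.2% at 91 h. None of the 10 was lower at any of these hours, where 6.34%, 31.4% and 37.1% of all tested genes were. The median log2 difference of the 10 genes was 0.36, 2.10 and 2.68 at these hours, beside -0.002, -0.002 and 0.002 over all genes tested. The call at 23.5 h rests on limma's trend of variance with level: without it 0 of the 10 passed, as in a fit over all 14 libraries, while 7 passed in a fit that left out IFNγ at 48 h.

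**Figure D2:**
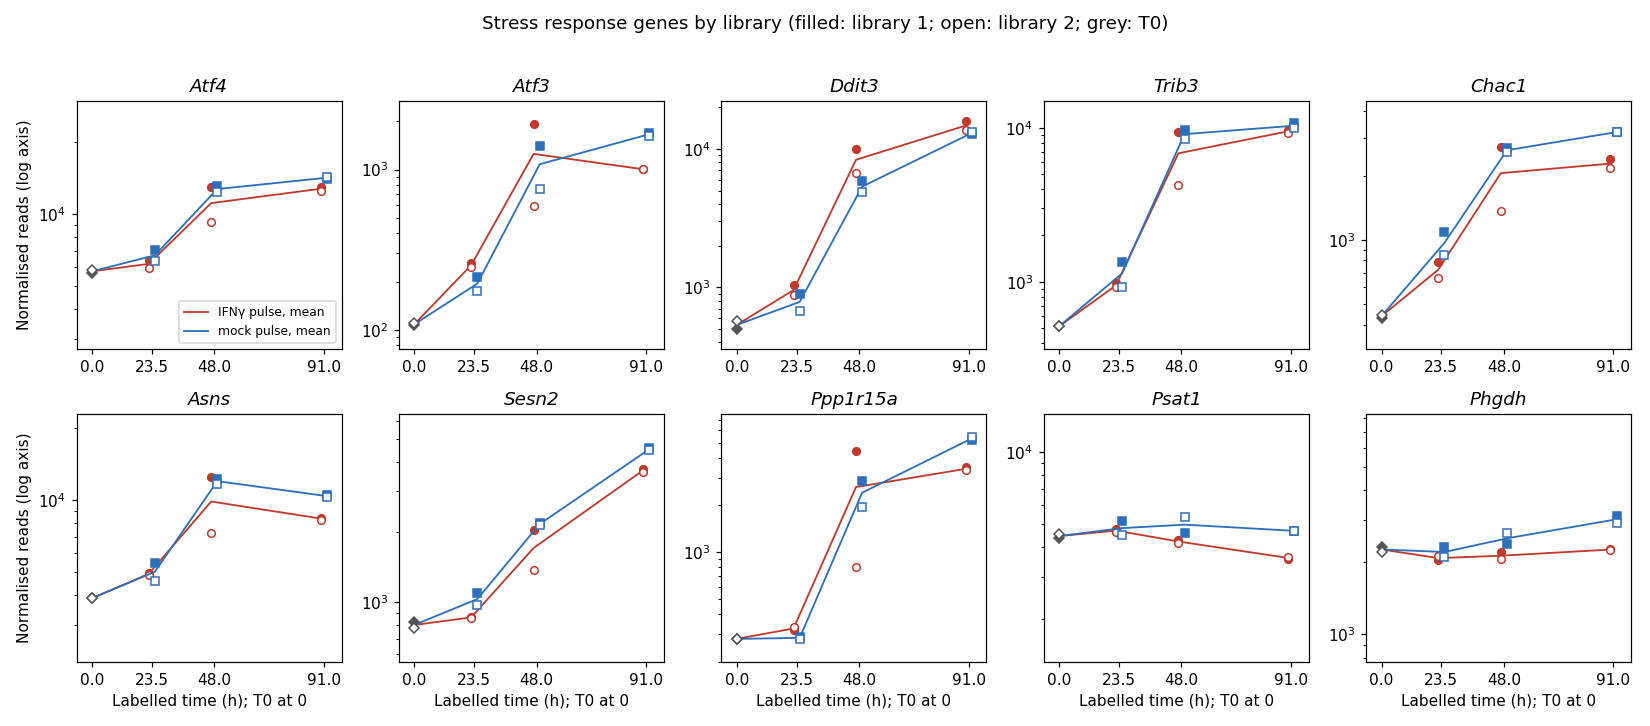
Normalised reads (log axis) of each gene against the labelled hour, with filled points for library 1, open points for library 2 and lines through the group means; IFNγ is red, mock blue and T0 grey. In mock cells 8 genes are higher at 48 h than at 23.5 h, all but Psat1 and Phgdh, and the IFNγ points at 48 h are spread widely.

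Among the transcription factors, Atf4, the head of the arm, had the highest level per length at T0 of the 10 genes. Atf4 had 5669 and 5857 normalised reads in the T0 libraries, and after an IFNγ pulse 6433 and 5953 at 23.5 h, 12935 and 9296 at 48 h, then 13006 and 12528 at 91 h. Its mock libraries had 7062 and 6384 at 23.5 h, 13129 and 12324 at 48 h, then 14071 and 14324 at 91 h. All 8 libraries of 48 and 91 h lay above all 6 of T0 and 23.5 h. The share of all genes with such an order was not counted. In mock cells the difference from T0 was log2 0.22 (SE 0.051) at 23.5 h, 1.14 (SE 0.056) at 48 h and 1.30 (SE 0.038) at 91 h. Each passed, with adjusted p of 0.01, 1e-07 and 4.4e-12. Most of it came between 23.5 and 48 h (log2 0.92), and the step between 48 and 91 h of 0.16 did not pass (adjusted p = 0.06).

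Ddit3 encodes CHOP, a C/EBP-family factor that ATF4 induces and that is known for its part in cell death under ER stress. Ddit3 had 503 and 568 normalised reads in the T0 libraries and 1037 and 875 at 23.5 h, 9987 and 6707 at 48 h, then 15877 and 13609 at 91 h after IFNγ. In the mock groups Ddit3 had 896 and 673 at 23.5 h, 5834 and 4849.6 at 48 h, then 12723 and 13327 at 91 h. It climbed at both steps of the mock course, by log2 2.77 (SE 0.13, adjusted p = 1.6e-07) between 23.5 and 48 h and 1.29 (SE 0.086, adjusted p = 4.9e-07) between 48 and 91 h. Against T0 the mock difference at 91 h was log2 4.60 (SE 0.056, adjusted p = 3.5e-15), the largest of the 10. Per kilobase of exon, Ddit3 was the fifth of the 10 genes at T0, with 312 normalised reads, and the highest at 91 h, with 8607 in IFNγ-pulsed and 7604 in mock-pulsed cells. Atf4 per kilobase was 2444 at T0, and 5414 in IFNγ-pulsed and 6021 in mock-pulsed cells at 91 h.

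Atf3, a stress-inducible factor of the ATF/CREB family that can repress or activate, had the lowest level of the 10 per kilobase at T0. Its T0 libraries held 107 and 110.3 normalised reads, and IFNγ libraries 259.9 and 246 at 23.5 h, 1916 and 591 at 48 h, then 1005 and 1005 at 91 h. Mock libraries of Atf3 held 214 and 175 at 23.5 h, 1405 and 756 at 48 h, then 1694 and 1631 at 91 h. The libraries at 48 h were wide apart in both arms and the IFNγ pair enclosed the mock pair. At 91 h the pairs were tight and both IFNγ libraries were below both mock libraries, an order whose share over all genes was not counted. Mock cells were above T0 by log2 0.83 (SE 0.13) at 23.5 h, 3.24 (SE 0.22) at 48 h and 3.93 (SE 0.08) at 91 h. The adjusted p were 0.00099, 8.9e-07 and 1.7e-13. The step between 48 and 91 h was log2 0.69 (adjusted p = 0.015), and 0.24 without library 2 of mock at 48 h and 1.14 without library 1.

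Of the genes that limit the response, Trib3 encodes a pseudokinase that binds ATF4 and CHOP and AKT. Trib3 had 513 and 514 normalised reads in T0 and 975 and 920.0 at 23.5 h, 9395 and 4269 at 48 h, then 9654 and 9323 at 91 h after IFNγ. In mock libraries Trib3 had 1339.6 and 925 at 23.5 h, 9702 and 8492 at 48 h, then 10686 and 9961 at 91 h. Its mock rise over T0 of log2 4.14 (SE 0.074, adjusted p = 4e-10) at 48 h was nearly that of 91 h, log2 4.33 (SE 0.048, adjusted p = 2.2e-15). The step between 48 and 91 h, log2 0.18, did not pass (adjusted p = 0.063). Ppp1r15a encodes GADD34, the subunit that directs protein phosphatase 1 to phosphorylated eIF2. The T0 libraries of Ppp1r15a held 279.5 and 278 normalised reads, and those after IFNγ 320.2 and 330.4 at 23.5 h, 4410.4 and 805 at 48 h, then 3482 and 3337 at 91 h. After a mock pulse Ppp1r15a stood at 288 and 278 at 23.5 h, 2862 and 1936 at 48 h, then 5197 and 5470.1 at 91 h. No difference from T0 was called in mock cells at 23.5 h (log2 0.02, SE 0.091, adjusted p = 0.91), and the gene then climbed by log2 3.05 to 48 h and a further 1.18 to 91 h (adjusted p = 1.9e-07 and 3.9e-05). It was the one gene of the 8 risers without a call at that hour.

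Chac1 encodes an enzyme that breaks down glutathione and is a target of ATF4. Chac1 had 431 and 445 normalised reads in T0 and 787 and 662 at 23.5 h, 2737 and 1369 at 48 h, then 2385 and 2169 at 91 h after IFNγ. Its mock libraries held 1087 and 849 at 23.5 h, 2681 and 2579 at 48 h, then 3201 and 3201 at 91 h. Mock cells exceeded T0 by log2 1.13 (SE 0.093, adjusted p = 3.7e-06) already at 23.5 h, close to the log2 1.115 of Trib3, and by 2.87 (SE 0.053, adjusted p = 6e-14) at 91 h. Sesn2 encodes sestrin 2, a leucine-binding inhibitor of mTORC1 signalling. Sesn2 had 823 and 779.5 normalised reads in T0, and 868 and 858 at 23.5 h, 2050.5 and 1370.4 at 48 h, then 3738 and 3618 at 91 h after IFNγ. The Sesn2 mock libraries had 1096 and 972 at 23.5 h, 2178 and 2153 at 48 h, then 4578 and 4476 at 91 h. It climbed late as well as early, by log2 1.07 (SE 0.08, adjusted p = 3.4e-06) between 23.5 and 48 h and 1.06 (SE 0.064, adjusted p = 2.2e-07) between 48 and 91 h.

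Asns encodes asparagine synthetase, the enzyme that makes asparagine from aspartate. Asns had 3866 and 3882 normalised reads in T0 and 4926 and 4866 at 23.5 h, 12414 and 7251 at 48 h, then 8422 and 8268 at 91 h after IFNγ. In mock cells Asns had 5421 and 4580.4 at 23.5 h, 12246 and 11673 at 48 h, then 10436 and 10282 at 91 h. It peaked at 48 h in mock cells: the difference from T0 was log2 1.63 (SE 0.055, adjusted p = 7.2e-09) there, and mock cells at 91 h were below those at 48 h by -0.21 (SE 0.064, adjusted p = 0.017). Psat1 and Phgdh encode enzymes of serine synthesis from a glycolytic intermediate. Psat1 had 4376 and 4529.8 normalised reads in T0, 4775 and 4617 at 23.5 h, 4304 and 4153 at 48 h, then 3569 and 3647 at 91 h after IFNγ, and in mock cells 5134 and 4482 at 23.5 h, 4576 and 5368 at 48 h, then 4684 and 4683 at 91 h. No mock group of Psat1 passed against T0 in the main fit, and the 95% interval of the log2 difference at 91 h was -0.01 to 0.16. The authors' own test marked Psat1 as higher in mock cells at 48 h than in T0 (adjusted p = 0.0367). Phgdh had 2326 and 2204 normalised reads in T0, 2048 and 2119 at 23.5 h, 2206 and 2058 at 48 h, then 2269.7 and 2255 at 91 h after IFNγ, and in mock cells 2317 and 2103 at 23.5 h, 2383 and 2656 at 48 h, then 3129 and 2926 at 91 h. Of the mock groups of Phgdh only that at 91 h passed in the main fit, at log2 0.42 (SE 0.049, adjusted p = 4.6e-06 by limma). With equal library totals both Psat1 and Phgdh passed in mock cells at 48 h.

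Between neighbouring mock hours, 8 of the 10 genes were higher at 48 h than at 23.5 h and none was lower, where 28.0% of all tested genes were higher and 28.9% lower. At 91 h against 48 h 6 were higher and 1, Asns, was lower, where 26.6% of genes were higher and 29.9% lower. Without the variance trend 4 of the 10 passed this last step (Ddit3, Chac1, Sesn2 and Ppp1r15a, all higher), and 3 in the fit over all 14 libraries (Ddit3, Sesn2 and Phgdh, all higher). IFNγ-pulsed cells also had more of these RNAs than T0. At 23.5 h, 7 passed against T0, 6 of them higher and Phgdh lower (log2 -0.12, SE 0.041, adjusted p = 0.032), where 38.0% of all tested genes passed in 1 direction or the other. The fit over 14 libraries left 1 of these calls, Ddit3. At 48 h, 7 were higher and none lower, where 13.4% of all tested genes were higher and 13.0% lower. Leaving out library 1 of IFNγ at 48 h gave 9 and leaving out library 2 gave 8, while leaving out either T0 library gave 4 (Atf3, Ddit3, Trib3 and Chac1). Of all genes 8148 and 8722 passed without library 1 and library 2 of IFNγ, and 330 and 314 without library 1 and library 2 of T0, beside 3383 with all 4. At 91 h, 8 were higher and Psat1 was lower (log2 -0.30, SE 0.042, adjusted p = 1.6e-05), where 38.1% of genes were higher and 37.4% lower. IFNγ-pulsed cells at 91 h exceeded T0 27.5 times for Ddit3, 18.5 times for Trib3, 12.2 times for Ppp1r15a and 9.27 times for Atf3. These comparisons share the T0 libraries with those of the mock groups. In the authors' deposited comparisons with T0, an adjusted p under 0.05 marked 5, 8 and 9 of the 10 genes after IFNγ. After mock it marked 7, 9 and 9, each at 23.5, 48 and 91 h. All of them were higher than T0 but 1 at 91 h after IFNγ. The share of all listed genes that the authors' test marked was not counted, so these counts stand without a background.

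The second comparison asks what the earlier IFNγ pulse changed in the arm. At 23.5 h the differences were small and ran both ways. Atf3 was higher and Chac1 and Sesn2 were lower in IFNγ-pulsed cells, and the other 7 genes did not pass. Over all tested genes 8.55% were higher and 6.06% lower, so 58.5% of the calls were higher, against 48.4% with equal library totals and 48.3% with median-of-ratios size factors. Atf3 averaged 253 ± 9.49 normalised reads in IFNγ-pulsed and 194 ± 28.0 in mock-pulsed cells (SD, n = 2 libraries each; limma log2 0.39, SE 0.11, adjusted p = 0.043). Chac1 averaged 724 ± 88.5 after IFNγ and 968 ± 168 after mock (log2 -0.41, SE 0.11, adjusted p = 0.023 by limma). Sesn2 averaged 863 ± 7.15 after IFNγ and 1034 ± 88.1 after mock (log2 -0.26, SE 0.065, adjusted p = 0.021 by limma). The libraries of the 2 arms did not overlap in any of these 3 genes. They did not overlap in Ppp1r15a either, which did not pass (log2 0.20, adjusted p = 0.15 by limma). The share of all genes without overlap was not counted. Ddit3 was at log2 0.29 (SE 0.11, adjusted p = 0.12) and Trib3 at -0.23 (SE 0.12, adjusted p = 0.25), neither past the threshold. The calls at 23.5 h were not stable. None passed without the variance trend or in the fit over 14 libraries, and the call of Atf3 was also lost with equal totals, with median-of-ratios size factors and in the fit without IFNγ at 48 h. Leaving out IFNγ library 1 left Chac1, leaving out IFNγ library 2 left only Ddit3 (higher), leaving out mock library 1 left Atf3 and Ddit3 (both higher), and leaving out mock library 2 gave 5 genes, all lower (Atf4, Trib3, Chac1, Asns and Sesn2). All 10 genes were higher in library 1 than in library 2 of that mock group.

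**Figure D3:**
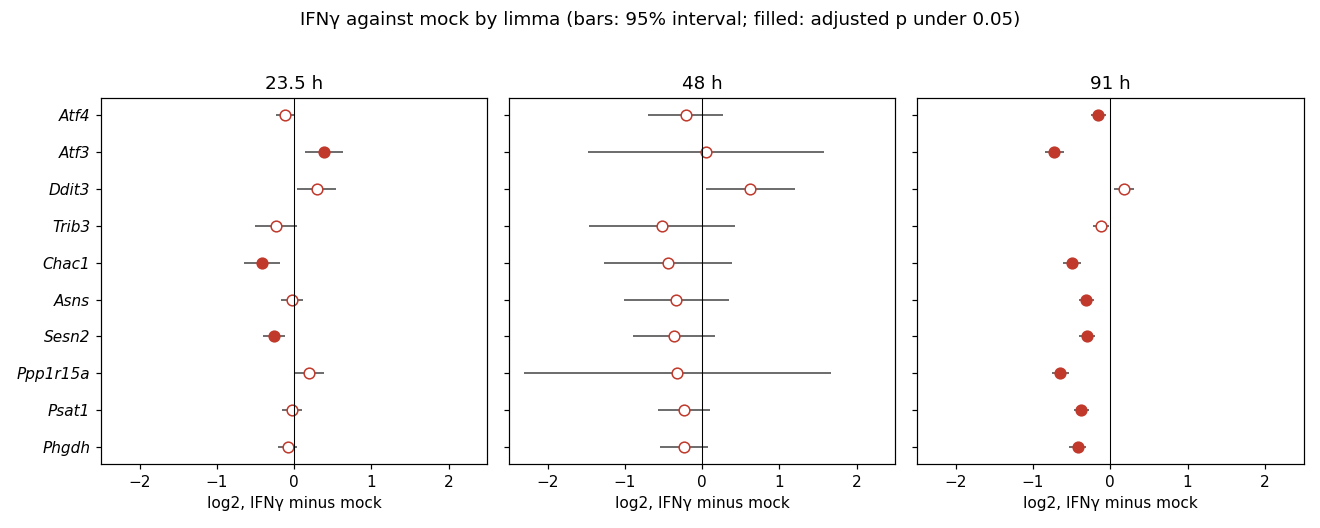
The limma log2 difference of IFNγ minus mock (horizontal axis) for the 10 genes (rows) at 23.5, 48 and 91 h (panels), with bars for the 95% interval and filled points where the adjusted p is under 0.05. At 91 h 8 points are filled and lie below 0, while at 48 h none is filled and the bar of Ppp1r15a runs from -2.31 to 1.67.

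At 48 h none of the 10 genes differed between IFNγ-pulsed and mock-pulsed cells by limma, and 0.00% of the 12652 genes tested did. At an unadjusted p under 0.05 limma marked 1 of the 10, Ddit3 (adjusted p = 0.71), and 847 of all genes. Ddit3 averaged 8347 ± 2319 normalised reads in IFNγ-pulsed and 5342 ± 696 in mock-pulsed cells (SD, n = 2 libraries each), and both IFNγ libraries were above both mock libraries. In Sesn2, Psat1 and Phgdh both IFNγ libraries were below both mock libraries. The share of all genes without overlap at 48 h was not counted. Trib3 averaged 6832 ± 3625 after IFNγ and 9097 ± 856 after mock (log2 -0.52, 95% interval -1.47 to 0.43). The 95% interval of the log2 difference was -2.31 to 1.67 for Ppp1r15a and -1.48 to 1.57 for Atf3, so that differences of several fold either way were not detectable. The 2 IFNγ libraries gave opposite directions for Ppp1r15a and Atf3, and Ddit3 passed as higher with either of them left out. Without library 1, 8 of the 10 genes passed, 7 of them lower (Ppp1r15a at log2 -1.55, Trib3 -1.09, Chac1 -0.94, Atf3 -0.80, Asns -0.72, Sesn2 -0.66 and Atf4 -0.45) and Ddit3 higher (0.33). Without library 2, 3 passed and all were higher: Ppp1r15a at log2 0.91, Ddit3 0.91 and Atf3 0.89. Of all genes 3285 passed without library 1 and 467 without library 2. In both of these fits the lone library was taken to vary like the mock pair.

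At 91 h IFNγ-pulsed cells had less RNA of most of the arm than mock-pulsed cells. Of the 10 genes 8 were lower and none higher, where 7.53% of all tested genes were lower and 8.75% higher. The median log2 difference of the 10 genes was -0.34, beside 0.004 over the 12435 genes tested. The largest differences were in the factor Atf3 and the phosphatase subunit gene Ppp1r15a. Atf3 averaged 1005 ± 0.41 normalised reads in IFNγ-pulsed and 1662 ± 44.2 in mock-pulsed cells (SD, n = 2 libraries each), which is a fold of 0.605 (log2 -0.73, SE 0.057, adjusted p = 5.7e-07 by limma). Ppp1r15a averaged 3409 ± 103 and 5334 ± 193 in the same groups, a fold of 0.639 (log2 -0.65, SE 0.049, adjusted p = 3.8e-07). Chac1 averaged 2277 ± 153 after IFNγ and 3201 ± 0.13 after mock (log2 -0.49, SE 0.055, adjusted p = 1.9e-05). In every one of the 10 genes but Ddit3, both IFNγ libraries lay below both mock libraries, also in Trib3, which did not pass. The share of all genes for which this held was not counted. The serine enzymes were lower too. Phgdh averaged 2262 ± 10.3 after IFNγ and 3028 ± 144 after mock (log2 -0.42, SE 0.052, adjusted p = 5e-05). Psat1 averaged 3608 ± 55.6 after IFNγ and 4684 ± 0.3 after mock (log2 -0.38, SE 0.046, adjusted p = 5e-05). Asns (log2 -0.31, adjusted p = 0.00022), Sesn2 (-0.30, 0.00044) and Atf4 (-0.15, 0.035) were lower by less. Ddit3 and Trib3, the 2 genes with the largest mock fold over T0, did not pass. Ddit3 averaged 14743 ± 1603 after IFNγ and 13025 ± 427 after mock (log2 0.17, 95% interval 0.04 to 0.31, adjusted p = 0.07). Trib3 was at log2 -0.12 (95% interval -0.23 to -0.02, adjusted p = 0.11). Equal library totals and median-of-ratios size factors kept all 8 calls. Leaving out any 1 of the 4 libraries lost the call of Atf4 and kept the other 7, and Ddit3 passed as higher without library 2 of IFNγ or without library 2 of mock. Of the 8, 7 passed in the fit without IFNγ at 48 h (not Atf4), 2 without the variance trend (Atf3 and Ppp1r15a) and 1 in the fit over all 14 libraries (Phgdh).

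Whether the IFNγ difference itself changed between 23.5 and 91 h was tested as an interaction over 8 libraries. It fell in 4 of the 10 genes and rose in none, where 5.35% of all tested genes fell and 3.94% rose. Atf3 had a difference of log2 -0.73 at 91 h and 0.39 at 23.5 h, a change of -1.11 (SE 0.13, adjusted p = 5.6e-05). Ppp1r15a had -0.65 at 91 h and 0.20 at 23.5 h, a change of -0.84 (SE 0.078, adjusted p = 7.1e-06). The changes of Psat1 and Phgdh were -0.35 and -0.34 (SE 0.079 and 0.077, adjusted p = 0.014 for each). For Chac1 the change was -0.08 (95% interval -0.38 to 0.22) and for Sesn2 -0.04 (-0.21 to 0.13). The calls of Atf3 and Ppp1r15a held without any 1 of the 8 libraries. Psat1 was lost without library 1 of IFNγ at either hour, and Phgdh without library 1 of mock at 91 h or library 2 of IFNγ at 23.5 h. Without the variance trend Atf3 and Ppp1r15a passed, and in the fit over all 14 libraries none did; at an unadjusted p under 0.05, 5 of the 10 and 2925 of all genes passed in limma's fit of these 8 libraries.

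Around these 10 genes, the wider pathway was counted in lists. In mock cells at 91 h against T0, 8 of 8 tested amino acid transporters induced by ATF4, 17 of 18 other ATF4 or CHOP targets and 10 of 12 aminoacyl-tRNA synthetases were higher, beside the 37.2% of all genes. Of the synthetases 1 was lower, and of the other 2 lists none. Slc7a11 averaged 3884 normalised reads in mock cells and 342 in T0 (log2 3.50, SE 0.052, adjusted p = 1.2e-14), the cystine transporter. Wars averaged 12482 normalised reads in mock cells and 3213 in T0 (log2 1.96, SE 0.041, adjusted p = 2.1e-13), the tryptophanyl-tRNA synthetase. Of the partner and related transcription factors 8 of 10 were higher and 1 lower. Nupr1 averaged 2857 normalised reads in mock cells and 128 in T0 (log2 4.47, SE 0.081, adjusted p = 5.4e-14), a small stress-induced chromatin protein. Atf5 averaged 14380.0 normalised reads in mock cells and 855 in T0 (log2 4.07, SE 0.048, adjusted p = 2.5e-15), a close relative of ATF4, and Cebpb averaged 1192 normalised reads in mock cells and 91.7 in T0 (log2 3.66, SE 0.14, adjusted p = 8.8e-11), a C/EBP partner. Amino acid synthesis other than of serine and glycine had 6 of 8 genes higher and 2 lower. Pycr1 averaged 902 normalised reads in mock cells and 103 in T0 (log2 3.12, SE 0.11, adjusted p = 2.7e-11), an enzyme of proline synthesis, and Cth averaged 1408 normalised reads in mock cells and 292 in T0 (log2 2.27, SE 0.072, adjusted p = 1e-11), which makes cysteine.

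Other lists were split. Of 7 genes of serine, glycine and one-carbon synthesis 4 were higher in mock cells at 91 h than in T0 and 3 lower. Aldh1l2 averaged 13758 normalised reads in mock cells and 608 in T0 (log2 4.50, SE 0.041, adjusted p = 4.9e-16), a mitochondrial folate enzyme, whereas Shmt1 averaged 168 normalised reads in mock cells and 1198 in T0 (log2 -2.83, SE 0.084, adjusted p = 5.3e-12), the cytosolic serine hydroxymethyltransferase. Of 11 sensors and eIF2 machinery genes 3 were higher and 4 lower. Eif2ak2 averaged 2949 normalised reads in mock cells and 1113 in T0 (log2 1.41, SE 0.059, adjusted p = 1.6e-10), which encodes the RNA-sensing kinase PKR. The ER chaperones and the XBP1 and ATF6 arms went mostly the other way, with 3 of 16 higher and 11 lower, where 37.1% of all genes were lower. Sdf2l1 averaged 420.3 normalised reads in mock cells and 1300.3 in T0 (log2 -1.64, SE 0.096, adjusted p = 5.1e-09), an ER protein of the chaperone machinery. Dnajb9 averaged 976 normalised reads in mock cells and 360.2 in T0 (log2 1.44, SE 0.068, adjusted p = 6e-10), an ER co-chaperone.

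After IFNγ, at 91 h, 7 of 8 transporters and 7 of 12 synthetases were lower than in mock cells and none was higher, where 7.53% of all tested genes were lower and 8.75% higher. Slc7a11 averaged 2268 normalised reads after IFNγ and 3884 after mock (log2 -0.78, SE 0.067, adjusted p = 1.2e-06). Gars averaged 15549 normalised reads in IFNγ-pulsed cells and 19532 in mock-pulsed cells (log2 -0.33, SE 0.046, adjusted p = 0.00016), the glycyl-tRNA synthetase. Other amino acid synthesis had 4 of 8 lower and 1 higher, and serine, glycine and one-carbon synthesis 4 of 7 lower and 1 higher. Pycr1 averaged 584 normalised reads in IFNγ-pulsed cells and 902 in mock-pulsed cells (log2 -0.62, SE 0.085, adjusted p = 0.00012). Shmt2 averaged 5214 normalised reads in IFNγ-pulsed cells and 7366 in mock-pulsed cells (log2 -0.50, SE 0.051, adjusted p = 9.1e-06), the mitochondrial serine hydroxymethyltransferase. Gcat averaged 284 normalised reads in IFNγ-pulsed cells and 195 in mock-pulsed cells (log2 0.54, SE 0.11, adjusted p = 0.0035), an enzyme of threonine breakdown. The other ATF4 or CHOP targets ran both ways, with 6 of 18 lower and 4 higher. Gdf15 averaged 163 normalised reads in IFNγ-pulsed cells and 326 in mock-pulsed cells (log2 -1.0, SE 0.12, adjusted p = 2.8e-05), a secreted stress cytokine. Of 9 partner factors 3 were lower, and of 11 sensors and eIF2 genes 3 were lower. Cebpb averaged 818 normalised reads in IFNγ-pulsed cells and 1192 in mock-pulsed cells (log2 -0.52, SE 0.12, adjusted p = 0.0073). The ER chaperone list had 1 of 16 lower and 3 higher. Pdia4 averaged 8942 normalised reads in IFNγ-pulsed cells and 7435 in mock-pulsed cells (log2 0.27, SE 0.047, adjusted p = 0.001), an ER disulfide isomerase. Dnajc3 averaged 4822 normalised reads in IFNγ-pulsed cells and 4149.6 in mock-pulsed cells (log2 0.22, SE 0.046, adjusted p = 0.0044), an ER co-chaperone. Hspa5 averaged 34250.0 normalised reads in IFNγ-pulsed cells and 43907 in mock-pulsed cells (log2 -0.36, SE 0.056, adjusted p = 0.00043), which encodes the chaperone BiP. At 23.5 h that list stood at 14 of 16 higher after IFNγ and none lower, while no transporter or synthetase was higher, and 2 of 8 transporters and 0 of 12 synthetases were lower. Of all tested genes 8.55% were higher and 6.06% lower at that hour, and the 1820 genes called there were 380 without the variance trend and 319 in the fit over 14 libraries. Against T0, the ER chaperone list at 23.5 h had 10 of 16 lower and 0 higher in mock cells, where 6.34% of all tested genes were lower. In IFNγ-pulsed cells at that hour 6 of 16 were higher than T0 and 3 lower, where 38.0% of all tested genes passed in either direction.

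**Figure D4:**
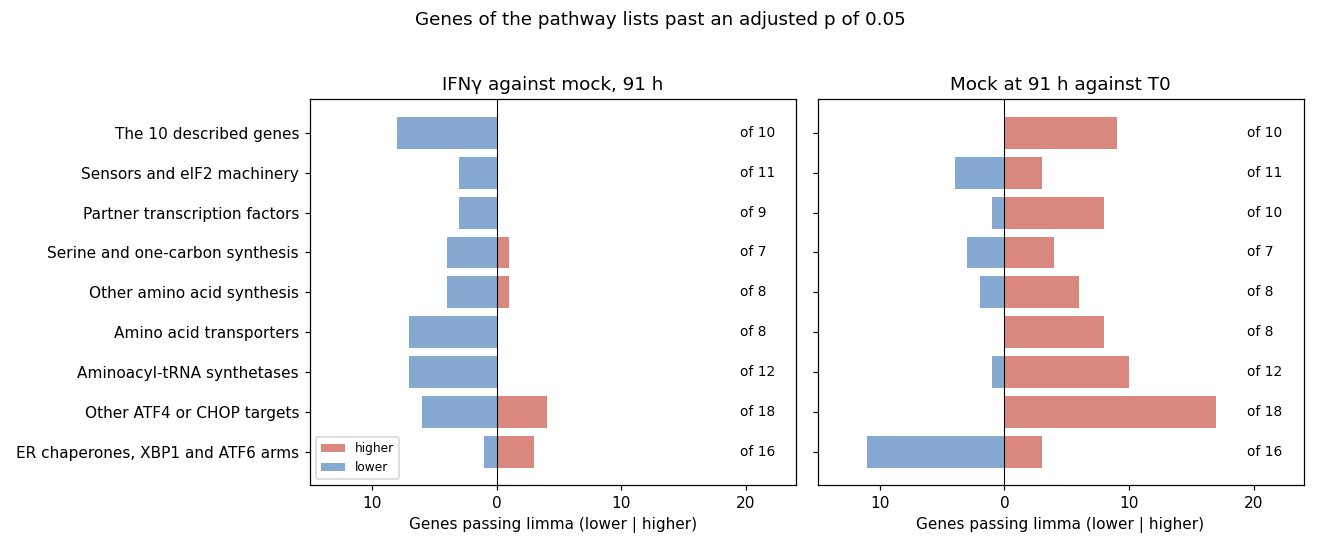
Genes of each list (rows) that passed limma at an adjusted p of 0.05, with lower counts left of 0 and higher counts right of it, for IFNγ against mock at 91 h (left) and mock at 91 h against T0 (right); the number tested stands at the right. The 10 described genes, the transporters and the synthetases are mostly lower in the left panel and higher in the right one, and the ER chaperones are mostly lower in the right panel.

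Over the 7 group means, 8 of the 10 genes followed nearly the same course. Their pairwise Pearson r of log2(level + 1) was 0.82 (Asns with Sesn2) to 0.99 (Atf4 with Trib3), while Psat1 ran from -0.45 with Ddit3 to 0.27 with Phgdh. These r describe 7 means that share a T0 group and a scale, and most of each is the climb with time. Among 3176 genes with a level of 100 or more in some group and a spread of at least 1 log2 unit between groups, the amino acid transporter gene Slc1a4 was most like Atf4 (r = 0.9988 over 7 groups). Slc3a2, a transporter subunit, and Pycr1 were most like Asns (r = 0.9966 each). Pck2, a mitochondrial enzyme of phosphoenolpyruvate synthesis, and Slc7a11 were most like Chac1 (r = 0.9918 and 0.9891). Ern1, which encodes the ER stress sensor IRE1, was most like Atf3 (r = 0.9967), and Zbtb4 and Lonp1, a mitochondrial protease gene, were most like Ddit3 (r = 0.9989 and 0.9980). The highest r of all was that of Il17ra with Ppp1r15a (0.9994). Most like Sesn2 was Rmnd5a (0.9978), and most like Trib3 was Rchy1 (0.9952). Bcan was most like Psat1 (0.9162) and Zfp365 most like Phgdh (0.9486). After Slc1a4, Arl14ep was next most like Atf4 (0.9975). Among the 3 genes most like each of the 10, only Slc1a4, Slc3a2, Pycr1 and Slc7a11 are in the pathway lists above. Pck2, Ern1, Zbtb4, Lonp1 and all those named from Il17ra on are in none of them.

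Gene positions bear on a few of these counts. In the annotation used here (GENCODE vM21, GRCm38), Ddit3 lies on chromosome 10 at 127290774 to 127296288, plus strand, and overlaps a second entry of the same name by 2925 bases and Mars, on the other strand, by 68 bases. Ppp1r15a, on chromosome 7 at 45522916 to 45526268, minus strand, overlaps Tulp2 on the other strand by 717 bases. Sesn2, on chromosome 4 at 132492032 to 132510501, minus strand, overlaps the antisense-class entry Gm12981, annotated on its own strand, by 6089 bases. The strand setting of the authors' counting and their annotation were not stated in the sources, so reads of such overlaps cannot be told apart.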

How the data were processed

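PolyA RNA-seq of B16 cells was deposited as 6 tables, each setting T0 against 1 other group. The submitters' processing notes name DESeq, HTSeq 0.5.3, Picard 1.124 and STAR 2.5.0a, with builds mm10 and GRCm38. Strand setting, annotation and listing filter: not given in the sources used here. Per the file headers, the tables hold the authors' mean signal per gene (reads over size factors), the deposited log2 of T0 over the other group, and the authors' p-value and adjusted p-value. Entries that name no gene (4, in 5 of the tables) make up 57.1% to 70.3% of the group total; they were left out. No column was left unused (0).

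Whole reads of 2 libraries a group were solved from the deposited means: 99.6% of 157036 values gave 1 pair within 1.2 times the rounding error of 10 printed digits; for levels of 3000 or more, a pair had to lie within a log2 ratio of 2. Tables were put on 1 scale through T0. Test: limma 3.58.1 (R 4.3.3) with a variance trend on log2(normalised reads + 1), level of at least 20 in either group, two-sided, Benjamini-Hochberg over all genes, threshold 0.05. The pseudocount of 1 understates changes of low genes. A fold is a ratio of group means; SE and p belong to limma's difference of mean log2 values. The procedure was tested on simulated data. Of 100 genes changed by log2 1 either way, limma called 88 for IFNγ against mock at 91 h. For mock against T0 at 91 h it called 85 of 100. False calls were 6 and 8. Changes smaller than log2 1, which include those of all 10 genes for IFNγ against mock at 91 h, were not simulated. The simulated spread was set by level, as the variance trend assumes, so the simulation cannot test that setting. Other software: Python 3.11.15, numpy 2.4.6, pandas 2.3.3, scipy 1.17.1 and matplotlib 3.10.9.

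The genes, lists and tests were chosen with earlier results of these data known. All 10 genes are described; from each list at most the 3 largest passing changes of mock against T0 and of IFNγ against mock at 91 h may be named, and for each gene the 3 genes most like it. Alternatives tried were no variance trend, a fit over all 14 libraries, equal totals, median-of-ratios size factors, a pseudocount of 5, no level filter, leaving out each library and, added after seeing the data, a fit over 12 libraries without IFNγ at 48 h.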

Additional observations from a re-analysis of the deposited data

Results flagged for a closer look

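In 4 of the 10 genes the difference between IFNγ-pulsed and mock-pulsed cells changed between 23.5 and 91 h by limma. It fell in each of the 4, where 5.35% of all tested genes fell and 3.94% rose. The change was log2 -1.11 for Atf3 (SE 0.13, adjusted p = 5.6e-05), which was above mock in both IFNγ libraries at 23.5 h and below mock in both at 91 h. It was -0.84 for Ppp1r15a (SE 0.078, adjusted p = 7.1e-06), again above mock in both IFNγ libraries at 23.5 h and below mock in both at 91 h. The difference of Ppp1r15a at 23.5 h did not itself pass (limma adjusted p = 0.15). The change was -0.35 for Psat1 (SE 0.079, adjusted p = 0.014) and -0.34 for Phgdh (SE 0.077, adjusted p = 0.014), 2 enzymes of serine synthesis. Their IFNγ and mock libraries overlapped at 23.5 h and did not at 91 h. The libraries of Trib3, which did not pass at 91 h, did not overlap there either. The share of all genes with libraries apart in these ways was not counted. Without the variance trend Atf3 and Ppp1r15a alone passed, and in the fit over all 14 libraries none of the 10 did. The calls of Atf3 and Ppp1r15a held without any 1 of the 8 libraries, while those of Psat1 and Phgdh were each lost without either of 2 libraries.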

How the results depend on the processing

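Over 134 refits of the 12 counts, 116 stayed within 1.5 times of the reported count. Without the variance trend the count fell to 0 of the 10 genes (from 3) in IFNγ against mock at 23.5 h, 2 (from 8) at 91 h, 0 (from 7) in mock against T0 at 23.5 h, 4 (from 7) in mock at 91 against 48 h and 2 (from 4) for the change of the IFNγ difference. In 1 fit over all 14 libraries these counts were 0, 1, 0, 3 and 0, and IFNγ against T0 at 23.5 h fell to 1 (from 7); the cause was not tested. Without 1 library the counts were 1 to 5 in IFNγ against mock at 23.5 h, 0 to 8 at 48 h and 4 to 9 in IFNγ against T0 at 48 h. Of 1340 refits of log2 differences, 92 lost a call, 39 gained one and 27 changed sign, 2 of these past the threshold (Atf3 and Ppp1r15a at 48 h). With median-of-ratios size factors Phgdh in IFNγ against T0 at 91 h was 0.016. The other 26 left out 1 library, and log2 then ranged in IFNγ against mock at 23.5 h -0.50 to 0.033 for Trib3, -0.15 to 0.10 for Asns and -0.13 to 0.067 for Psat1; in IFNγ against mock at 48 h -0.80 to 0.89 for Atf3, -0.45 to 0.024 for Atf4, -1.09 to 0.050 for Trib3, -0.94 to 0.058 for Chac1, -0.72 to 0.054 for Asns and -1.55 to 0.91 for Ppp1r15a; in mock against T0 at 23.5 h -0.0027 to 0.046 for Ppp1r15a and -0.11 to 0.033 for Phgdh; in IFNγ against T0 at 91 h -0.040 to 0.038 for Phgdh; in mock at 48 against 23.5 h -0.068 to 0.16 for Psat1; in mock at 91 against 48 h -0.20 to 0.033 for Psat1; in the change of the IFNγ difference -0.11 to 0.037 for Atf4, -0.33 to 0.087 for Ddit3, -0.26 to 0.10 for Chac1, -0.15 to 0.38 for Trib3 and -0.13 to 0.045 for Sesn2.

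Calls over all genes moved more. Without the trend and over 14 libraries they were 380 and 319 (reported 1820) in IFNγ against mock at 23.5 h, 107 and 159 (2024) at 91 h, 38 and 66 (1829) in mock against T0 at 23.5 h, 2551 and 1291 (4765) in IFNγ against T0 at 23.5 h, and 345 and 140 (1163) for the change. Over 14 libraries IFNγ at 48 h gave 680 (0) against mock and 6900 (3383) against T0. The fit over 12 libraries, chosen after seeing the data, gave 1196 in mock and 3070 in IFNγ against T0 at 23.5 h. Without 1 library the lowest and highest were 1000 and 2148 in IFNγ against mock at 23.5 h, 0 reported and 4 to 3285 at 48 h, 918 to 1938 at 91 h, 811 to 2458 in mock against T0 at 23.5 h, 314 to 8722 in IFNγ against T0 at 48 h and 580 to 1094 for the change. No paired analysis was possible because the labels give 1 sample a group and the library numbers follow size factors. Precision rests on 2 libraries a group. At 48 h the IFNγ libraries held 5900 and 811 reads of Ppp1r15a, and the cause of that gap was not tested.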
